A study of Rattus norvegicus with 26 samples.

Results

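The cord at 4 weeks after a graft of mesenchymal stem cells from human umbilical cord (hUC-MSCs) was compared with the cord at 1 week after it, over all genes that passed an expression filter. The 4 libraries labelled +MSC-4w were set against the 3 labelled +MSC-1w, so 7 of the 26 libraries of the series entered the comparison itself, and 17990 of the 32883 genes in the table were tested. Both groups were female wild-type Sprague-Dawley rats of post-natal day 70 weighing about 250 g, in which the T10 cord had been compressed with a 60 g clip for 1 min. The hUC-MSCs were given intrathecally 7 days post injury, and segments of 5 mm were taken at 1 or 4 weeks post transplantation (wpt), that is 14 and 35 days post injury. Every transplanted animal received daily cyclosporin A, an immunosuppressant that blocks T cell activation, and the vehicle animals received it too. The groups set beside them were +MSC-2w (3 libraries), the vehicle groups +PBS-1w (3), +PBS-2w (2) and +PBS-4w (4), the subacute injury at the time of transplantation (sub-SCI, 3) and the intact or sham-operated cord (Intact, 4). The study's methods give 2 repeats for +MSC-2w and, by their general rule, 3 for +PBS-2w, where the labels give 3 and 2. The study's Results speak of 3 +MSC-2w samples, as the labels do. The labels were followed here.

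After a compression injury, blood cells and microglia fill the lesion, astrocytes and fibroblast-like cells build a scar rich in extracellular matrix, and myelin debris is cleared by phagocytes over weeks. MSCs are connective tissue progenitors studied as a graft for their secreted factors, and few of them are usually found to persist in the host cord. Interferons, released when foreign nucleic acid or foreign cells are sensed, act through dedicated transcription factors on a shared set of antiviral genes. The 2 time points ask which of these host programmes differ between the early and the later cord that carries a graft.

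Total counts were 24462279 to 33484347 in +MSC-1w and 23353052 to 43468509 in +MSC-4w, within the 19496602 to 43468509 of the whole series. Levels are given as normalized counts (CPM) after TMM scaling, and differences on the log2 scale as 4 wpt minus 1 wpt. The libraries numbered 1 stood apart in the series, since 337 genes had their highest value in replicate 1 whatever the group, and 81 genes their lowest. The medians of the gene lists below were recomputed in 7 fits that each left out 1 of these libraries, and the range over the fits, a check added after the data were seen, is given beside the median. Of 38 lists, 19 kept the sign of their median in all 7 fits and 19 did not. The study's methods call the libraries of a group biological replicates, and the labels do not say whether each came from a separate animal. The p-values thus measure a spread between samples, which edgeR's main fit estimated over all 8 groups and not only those compared. In bulk tissue, fewer cells of a type and less RNA per cell cannot be told apart.

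No gene passed the test between 1 and 4 wpt in the stem cell cords. The edgeR quasi-likelihood test, fitted over all 26 libraries, called 0 of 17990 genes at an adjusted p under 0.05 (0%), and the smallest adjusted p was 0.938. At an unadjusted p under 0.05, 268 genes (1.49%) had a higher mean at 4 wpt and 404 (2.25%) a lower one. Over all genes tested the median log2 difference was 0.01 and its SD 0.413. DESeq2 called 1 gene over all libraries (Per1, higher) and, on the 7 libraries alone, 11 higher and 6 lower. The 95% interval of the log2 difference lay within ±1 for 12599 genes (70% of those tested), and its median half-width was 0.49. For the other genes a change of 2-fold was not excluded at this number of libraries.

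The same span of time gave calls in the vehicle cords. Between +PBS-1w and +PBS-4w, 141 genes rose (0.784%) and 183 fell (1.02%) by the same edgeR test, with 3 and 4 libraries as in the stem cell arm. These calls depended on the fit, since edgeR on the 2 groups alone called 0, and leaving out 1 library gave from 11 (without +PBS-1w replicate 1) to 618 (without +PBS-4w replicate 1). Where a gene is said below to have risen or fallen in the vehicle cords, this holds for the fit over all 26 libraries. The difference between the courses was tested as an interaction, and edgeR called 0 genes (0%), with a smallest adjusted p of 0.491 and 335 genes above and 367 below at an unadjusted p under 0.05. DESeq2 called 2 genes for that difference over all libraries and 3 on the groups concerned. The larger number of calls in the vehicle arm thus does not show that the courses differed at any gene.

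**Figure D1:**
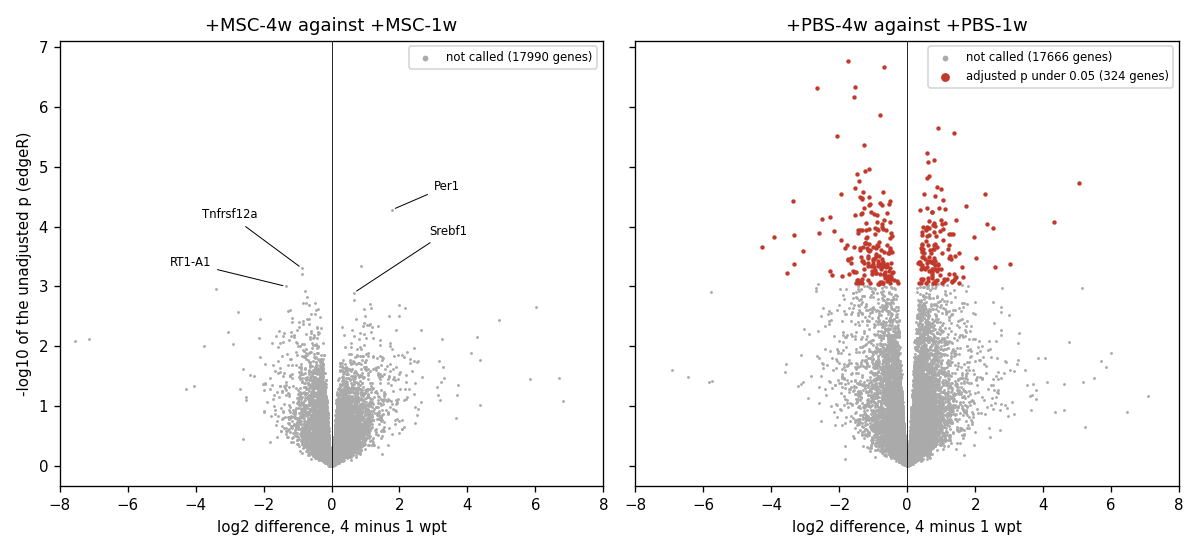
Log2 difference between 4 and 1 wpt (x axis) against the −log10 of edgeR's unadjusted p (y axis) for each of 17990 genes, in the stem cell cords (left) and the vehicle cords (right). Red points passed an adjusted p of 0.05, 0 genes on the left and 324 on the right, and labelled genes on the left are Per1, Srebf1, Tnfrsf12a and RT1-A1.

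The genes with the smallest p in each direction are named as values and not as changes. On the higher side they were Per1, Srebf1, Acacb, Adm and Ankub1. On the lower side they were Tnfrsf12a, RT1-A1, Irf1, Gbp4 and Crp. In all 10 the libraries of the 2 groups did not overlap, which held for 570 genes on the higher side (3.17%) and 666 on the lower side (3.7%). The 10 were chosen by their p in these same libraries, so the separation adds no support. Per1 (ENSRNOG00000007387), a repressor of the circadian clock that glucocorticoids also induce, read 39.5, 27.4 and 37.3 CPM in the +MSC-1w replicates and 194, 88.2, 118 and 80 in the +MSC-4w replicates. The means were 34.7 ± 6.41 (SD, n = 3) and 120 ± 51.8 (SD, n = 4). The lowest 4 wpt library stood above the highest 1 wpt library, and all 4 stood above the Intact cords, at 53.2 to 79.5 CPM. The log2 difference was 1.79 (SE 0.355, 95% interval 1.05 to 2.52, edgeR adjusted p = 0.938). In the vehicle cords Per1 rose by 1.52 (edgeR adjusted p = 0.0306), from 40.6, 38.5 and 78.5 CPM to 113, 154, 204 and 134. The clock hour at which tissue was taken was not given in the sources used here, and its part in the result was not tested.

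Srebf1 (ENSRNOG00000003463), the transcription factor that drives fatty acid synthesis, read 228, 234 and 267 CPM at 1 wpt and 421, 340, 360 and 410 at 4 wpt. Both groups were narrow, at 243 ± 20.9 and 383 ± 38.7 (SD, n = 3 and 4). Its log2 difference was 0.66 (SE 0.177) in the stem cell cords and 0.57 in the vehicle cords, where edgeR's adjusted p was 0.102. Acacb, the acetyl-CoA carboxylase of mitochondria that makes malonyl-CoA, had 34.7, 38.4 and 43.6 CPM at 1 wpt and 81, 50.5, 57 and 58.4 at 4 wpt, a log2 difference of 0.67 (SE 0.186). Acacb rose by 1.01 (edgeR adjusted p = 0.0185) in the vehicle cords. Adm, the vasodilator peptide adrenomedullin, read 9.86, 10.8 and 8.07 CPM and then 23.5, 18.2, 13.8 and 13.8, a log2 difference of 0.86 (SE 0.208). Ankub1, a gene of little described function, was under 2 CPM in every library of both groups with a log2 difference of 1.12 (SE 0.319).

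On the lower side, Tnfrsf12a (ENSRNOG00000003546), the receptor for the cytokine TWEAK that is induced in injured tissue, had the smallest p. Its level was 25.3, 25.1 and 21.5 CPM in +MSC-1w, 14.9, 11.9 and 10.4 in +MSC-2w and 14.1, 13.1, 13 and 12.2 in +MSC-4w. The 4 wpt libraries lay close together (13.1 ± 0.786, SD, n = 4) and above the Intact cords at 5.69 to 9.66 CPM. The log2 difference was −0.87 (SE 0.213, 95% interval −1.32 to −0.43), beside −0.67 in the vehicle cords.

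RT1-A1 (ENSRNOG00000038999), a classical MHC class I gene that presents peptides to cytotoxic T cells, read 50.1, 43.3 and 80 CPM at 1 wpt and 11.3, 22.4, 33 and 24.9 at 4 wpt. The log2 difference was −1.33 (SE 0.351). In the vehicle cords its log2 difference was 0.59, and the difference between the courses was −1.93 (edgeR unadjusted p = 0.000946, adjusted p = 0.999). RT1 class I genes are near-identical copies, so reads may be split among them and the value is uncertain. Irf1, a transcription factor of interferon responses, had 33.2, 27.6 and 38.5 CPM at 1 wpt against 12, 27.1, 21.2 and 16.9, a log2 difference of −0.78 (SE 0.208) beside −0.59 in the vehicle cords. Gbp4, an interferon-induced GTPase of a family of close paralogs, had 6.37 ± 1.16 CPM (SD, n = 3) and then 3.44 ± 1.12 (SD, n = 4), with a log2 difference of −0.88 (SE 0.22). Crp, the acute phase protein, was at 0.661 CPM or less in every library of both groups and rested on few reads.

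**Figure D2:**
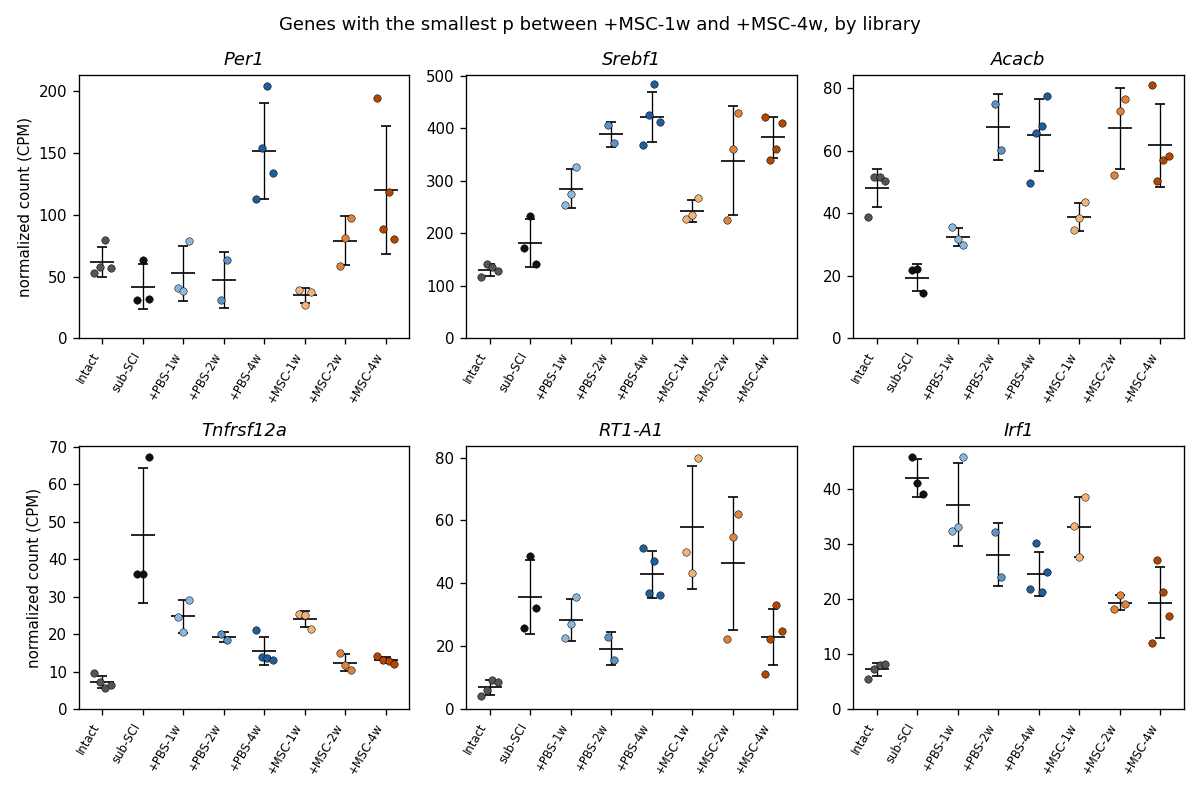
Normalized count (CPM, linear axis from 0) of Per1, Srebf1, Acacb, Tnfrsf12a, RT1-A1 and Irf1 in each of the 26 libraries, by group, with the group mean (bar) and SD (whiskers). The genes were chosen by their p between +MSC-1w and +MSC-4w, whose points do not overlap in any panel. Tnfrsf12a at 4 wpt spans 12.2 to 14.1 CPM.

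The interferon-stimulated genes had lower means at 4 wpt throughout. All 20 tested members of the list had a negative log2 difference, with a median of −0.77 against 0.01 over all genes. Of these, 15 were lower at an unadjusted p under 0.05, where 2.25% of all genes were, and edgeR called 0. The groups did not overlap on the lower side in 6 (Ifit1, Ifit3, Isg15, Dhx58, Cmpk2 and Bst2), as in 3.7% of all genes. DESeq2 on the 7 libraries called Cmpk2 and Ifit1. These genes encode antiviral effectors (Mx1, Oas1a, Rsad2, Ifit1), RNA sensors (Ddx58, Dhx58) and the relays of the response (Irf7, Stat2).

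Interferon acts on many such genes through a DNA element near the start site. The promoter was therefore read for the members found in RefSeq (GRCr8), as the 250 bases before the annotated start. Shown are the 3 members with the element and the smallest p (Gbp2, Irf7, Ifit3) and the member of smallest p without it (Mx1). Gbp2 lies at chr2:234005477-234005726 (plus strand), Irf7 at chr1:205800024-205800273 (minus strand), Ifit3 at chr1:241527076-241527325 (plus strand) and Mx1 at chr11:50294607-50294856 (minus strand). Each is printed 5′ to 3′ along its gene, with capitals on the core of the interferon-stimulated response element, which is GAAA, any 2 bases and GAAA again, or its reverse complement, TTTC, any 2 bases and TTTC.
Gbp2: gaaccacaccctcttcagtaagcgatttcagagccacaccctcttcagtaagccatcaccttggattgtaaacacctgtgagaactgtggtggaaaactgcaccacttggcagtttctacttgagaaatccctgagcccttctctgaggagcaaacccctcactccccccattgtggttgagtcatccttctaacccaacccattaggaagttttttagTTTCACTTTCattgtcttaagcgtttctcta
Irf7: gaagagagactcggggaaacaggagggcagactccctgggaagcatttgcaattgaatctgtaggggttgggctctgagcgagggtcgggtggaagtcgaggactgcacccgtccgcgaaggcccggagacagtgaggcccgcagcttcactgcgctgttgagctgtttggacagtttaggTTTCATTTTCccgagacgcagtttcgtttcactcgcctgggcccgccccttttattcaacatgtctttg
Ifit3: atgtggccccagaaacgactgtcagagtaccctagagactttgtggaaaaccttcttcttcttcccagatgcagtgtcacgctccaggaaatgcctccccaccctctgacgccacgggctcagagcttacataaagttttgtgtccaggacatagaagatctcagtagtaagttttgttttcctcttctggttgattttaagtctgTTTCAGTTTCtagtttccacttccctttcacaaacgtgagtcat
Mx1: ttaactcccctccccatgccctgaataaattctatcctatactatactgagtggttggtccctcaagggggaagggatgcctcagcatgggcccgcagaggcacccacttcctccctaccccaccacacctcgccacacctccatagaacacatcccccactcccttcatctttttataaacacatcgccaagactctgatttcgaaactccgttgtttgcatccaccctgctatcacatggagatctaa
The element stood on the reverse strand in the 3 genes that hold it, its first base 31 bases before the start in Gbp2, 69 in Irf7 and 44 in Ifit3. Of the list, 13 of 21 genes had a promoter in the table and 10 of those held the element (76.9%), beside 313 of 11923 promoters of genes tested (2.63%) and 1140 of all 33469 (3.41%). Among the 404 genes lower at an unadjusted p under 0.05, 282 had a promoter and 26 held it (9.22%). Without the list, this share was 20 of 273 (7.33%). Among those higher at that p, it was 3 of 158 (1.9%). A match of letters is a description of the sequence and no evidence of binding. The element was not looked for outside these 250 bases, so a gene without it here, such as Mx1, may hold it elsewhere.

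Gbp2, a GTPase that attacks the membranes of intracellular pathogens, read 68, 79.4 and 96.3 CPM at 1 wpt and 23, 71.5, 55.5 and 42.8 at 4 wpt. The log2 difference was −0.75 (SE 0.27). Irf7, the factor that amplifies interferon production, had 89, 126 and 135 CPM and then 29.3, 96.2, 47.5 and 34.2, a log2 difference of −1.17 (SE 0.465). In both genes +MSC-4w replicate 2 reached into the 1 wpt range and replicate 1 was the lowest. Mx1, an antiviral GTPase, went from 88.7, 147 and 166 CPM to 23.6, 99.1, 65.4 and 39.6, a log2 difference of −1.23. Ifit3, of the family that blocks translation of viral RNA, read 21.9, 27.4 and 46.7 CPM at 1 wpt against 14.2, 21.7, 16.2 and 13.6, with a log2 difference of −0.96. Cmpk2, a mitochondrial nucleotide kinase, varied little within each group. It read 57.7, 60.2 and 59.9 CPM at 1 wpt and 38.2, 44.4, 40.5 and 41.2 at 4 wpt, a log2 difference of −0.53 that separated the groups with no overlap. Dhx58, a regulator of the RNA sensors, had means of 32.1 ± 6.1 and 18.3 ± 5.35 CPM (SD, n = 3 and 4) and a log2 difference of −0.81. Ifit1 had the widest mean difference on the log2 scale (−1.66), from 38.2, 27.6 and 70.4 CPM to 8.63, 20.9, 15.2 and 12.6, but was under 0.5 CPM in scattered libraries elsewhere in the series, such as +PBS-4w replicate 4 at 0.413. Its reads may be shared with close paralogs.

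Summed over the 20 genes, the level was 1260 to 1640 CPM in +MSC-1w, 1190 to 1240 in +MSC-2w and 561 to 1260 in +MSC-4w. It was 764 to 1470 in sub-SCI and 266 to 441 in Intact. The vehicle cords, without a graft, stood at 1000 to 2030 CPM in +PBS-1w, 968 to 1410 in +PBS-2w and 944 to 1540 in +PBS-4w. The +MSC-4w libraries differed among themselves. Replicate 2 was the highest of its group in 20 of 20 genes, at a sum of 1260, and replicate 1 the lowest in 18 of 20, at 561. Without +MSC-4w replicate 1 the median was −0.63 and 2 of 20 genes stayed under an unadjusted p of 0.05. Without +MSC-1w replicate 3 the median was −0.62, with 3 such genes, and without +MSC-4w replicate 2 it was −0.99, with 19. Without +MSC-1w replicate 2 there were 7, without +MSC-4w replicate 4 there were 6, and without all replicate 1 libraries 11. All 20 genes stayed lower in each of these fits. In the vehicle cords 19 of 20 were lower, with a median of −0.33, 3 genes lower at that p and edgeR calling 0. For the difference between the courses all 20 were negative, with a median of −0.30, 1 gene at that p and edgeR calling 0. With 0 genes called for that difference, the 2 arms were not shown to differ.

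**Figure D3:**
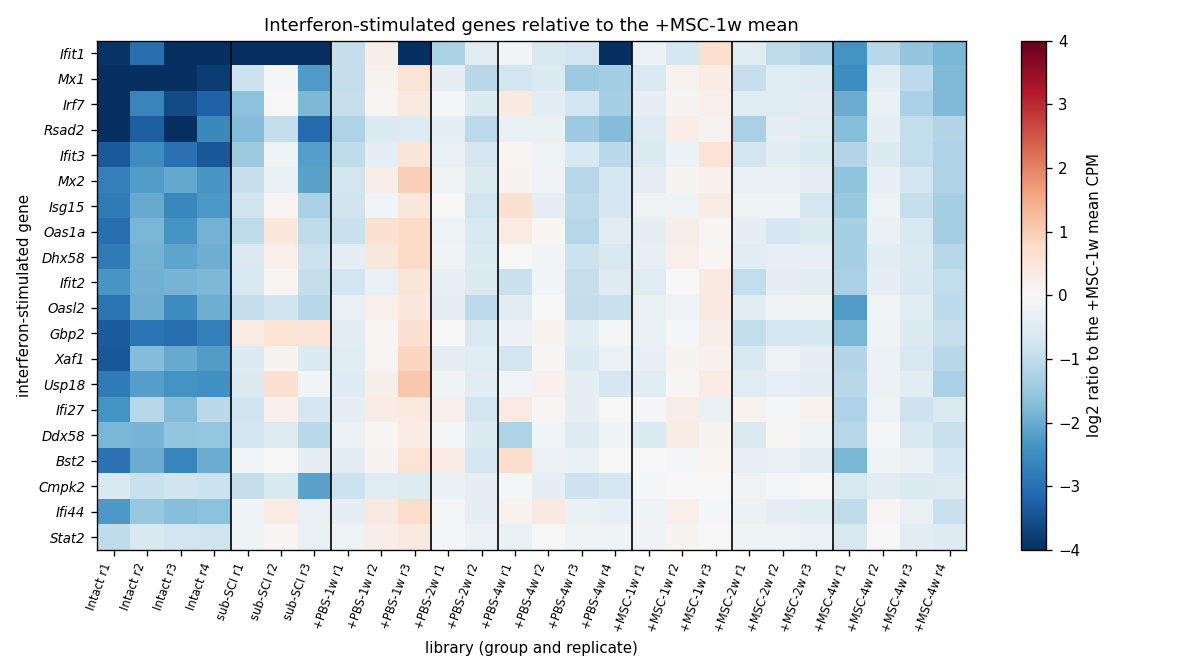
Log2 ratio of each library's CPM to the +MSC-1w mean (colour, blue lower and red higher, values beyond −4 drawn at −4) for the 20 interferon-stimulated genes tested (rows) in the 26 libraries (columns). The +MSC-4w columns are bluest in replicate 1, whose summed level was 561 CPM, and palest in replicate 2, at 1260 CPM.

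Chemokines and other inflammatory genes had lower means as well, by smaller amounts. Of 21 chemokine and receptor genes 16 were lower, with a median of −0.40 (range −0.63 to −0.33), 2 of them at an unadjusted p under 0.05, where 2.25% of all genes were. Cxcl10 (ENSRNOG00000022256), the interferon-induced attractant of T cells, had 20.7, 21.8 and 29.4 CPM at 1 wpt and 7.04, 15.6, 12 and 8.13 at 4 wpt. The groups did not overlap, and the log2 difference was −1.16 beside −0.16 in the vehicle cords. Among 13 inflammatory cytokines and enzymes 10 were lower (median −0.31, range −0.51 to −0.25), and Nlrp3, Casp1, Osm and Lif had an unadjusted p under 0.05. Such genes numbered 2 to 4 when 1 library was left out. Nlrp3, the sensor of the inflammasome, read 23.7, 29.9 and 25.1 CPM and then 8.99, 18.7, 18.6 and 12.6, a log2 difference of −0.83 (SE 0.235). It fell by 0.95 in the vehicle cords (edgeR adjusted p = 0.0397). Lif, a cytokine of the interleukin-6 family, had a log2 difference of −1.24 and fell by 1.94 in the vehicle cords (edgeR adjusted p = 0.0185). Of 16 complement genes 13 were lower (median −0.26, range −0.38 to −0.15), 2 of them at that p and 0 without +MSC-4w replicate 1, +MSC-4w replicate 4, +MSC-1w replicate 2 or +MSC-1w replicate 3. C3ar1, the receptor for the C3a fragment, had a log2 difference of −0.87, and C4a one of −0.56.

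Microglia and macrophage genes differed by small amounts. Of 12 homeostatic microglia genes 11 were lower (median −0.24, range −0.34 to −0.12, its smallest size without +MSC-1w replicate 3), 4 at an unadjusted p under 0.05, beside 2.25% of all genes. That number was 1 without +MSC-4w replicate 3 and 0 without +MSC-1w replicate 2, +MSC-1w replicate 3 or +MSC-4w replicate 1. Sall1, the transcription factor that keeps microglial identity, had 129, 156 and 154 CPM at 1 wpt and 85.1, 116, 106 and 120 at 4 wpt. The groups did not overlap, with a log2 difference of −0.46. Cx3cr1, the fractalkine receptor of microglia, had 64.4, 101 and 94.3 CPM against 34.9, 66.2, 55.3 and 74, and here the groups did overlap (log2 difference −0.59). Of 18 phagocytic macrophage genes 13 were lower (median −0.17, range −0.28 to −0.06), and Ctsl, a lysosomal protease, had 419, 449 and 500 CPM and then 338, 381, 339 and 420 (log2 difference −0.30). Their summed level was 24000 to 31600 CPM at 1 wpt and 25800 to 28800 at 4 wpt. Neutrophil genes (9 tested) had a median of 0.32 and 0 genes at an unadjusted p under 0.05, and MHC class II genes (10 tested) a median of 0.34 with 0 such genes. Without +MSC-4w replicate 2 these medians were −0.036 and −0.11, and without +MSC-1w replicate 3 they were 0.92 and 1.24. RT1-Da, a class II chain, spread from 13 to 203 CPM within +MSC-4w, where replicate 2 was the highest and replicate 1 the lowest, as for the interferon-stimulated genes. The 20 T and B lymphocyte genes had a median of −0.16, which turned to 0.22 without +MSC-1w replicate 3, 0.10 without +MSC-4w replicate 1, 0.095 without +MSC-4w replicate 4 and 0.017 without +MSC-1w replicate 1, and was −0.48 without +MSC-1w replicate 2. Cd8a, the co-receptor of cytotoxic T cells, read 14.1, 17.6 and 29.9 CPM and then 10.9, 10.9, 10.8 and 15.8, a log2 difference of −0.76. Cd8a fell by 2.65 in the vehicle cords (edgeR adjusted p = 0.00216), from 57.6, 153 and 72.8 CPM to 20, 7.02, 13.4 and 20. All 3 +MSC-1w libraries were below the lowest +PBS-1w library.

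Cell division genes had lower means in both arms. In the stem cell cords 27 of 29 were lower with a median of −0.33 (range −0.42 to −0.23). Of these, 11 did not overlap on the lower side, as 3.7% of all genes did, and 3 had an unadjusted p under 0.05, as 2.25% did. The 3 became 1 without +MSC-1w replicate 1 and 0 without +MSC-1w replicate 2, +MSC-1w replicate 3 or +MSC-4w replicate 1. In the vehicle cords 13 fell, beside 1.02% of all genes, and the median was −1.19. The median difference between the courses was 0.79, with 10 genes at an unadjusted p under 0.05 and edgeR calling 0. Bub1b, a kinase of the mitotic checkpoint, had 3.79, 4.63 and 4.17 CPM at 1 wpt and 1.03, 2.75, 2.61 and 2.8 at 4 wpt (log2 difference −0.86), and fell by 1.65 in the vehicle cords (edgeR adjusted p = 0.0336). Mki67, the proliferation marker, had a log2 difference of −0.23 in the stem cell cords and fell by 1.47 in the vehicle cords (edgeR adjusted p = 0.0477). Aurkb, another mitotic kinase, read 6.7, 7.98 and 8.82 CPM at 1 wpt and 108, 7.43, 70 and 9.94 at 4 wpt. Its level in replicates 1 and 3 of +MSC-4w thus stood apart from replicates 2 and 4, and the log2 difference of 2.64 rested on those 2 libraries.

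Scar and matrix genes had lower values at 4 wpt, with wide spread. Of 23 fibroblast and scar matrix genes 21 were lower, with a median of −0.49 and 2 at an unadjusted p under 0.05, beside 2.25% of all genes. The median was −0.14 without +MSC-1w replicate 2, −0.31 without +MSC-4w replicate 1 and −0.74 without +MSC-1w replicate 1. Tnc, tenascin C of the glial scar, had 48, 91.3 and 83.6 CPM and then 6.13, 32.8, 31.2 and 39.7, with no overlap and a log2 difference of −1.43. It fell by 1.91 in the vehicle cords (edgeR adjusted p = 0.0441). Postn, periostin of fibroblasts, had 16.5, 67.8 and 33.2 CPM and then 4.77, 25.8, 13.7 and 12.4, a log2 difference of −1.46, and fell by 2.59 in the vehicle cords (edgeR adjusted p = 0.0234). Of 14 matrix metalloproteinases and inhibitors 9 were lower (median −0.16, range −0.42 to −0.14), among them Mmp2, a gelatinase, at −0.91. Timp4, an inhibitor, was higher by 0.52. Chondroitin sulfate proteoglycan genes, which hinder axon growth, had a median of 0.09 over 14 (range −0.03 to 0.13). Chsy1, which extends the sugar chains, had a log2 difference of −0.38 and Hapln2, a link protein of nodes of Ranvier, one of 0.33.

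Reactive astrocyte genes (13 tested) had a median of −0.003 (range −0.05 to 0.11). Gfap, the intermediate filament of astrocytes, was at 9850 ± 463 and 10500 ± 1540 CPM (SD, n = 3 and 4), a log2 difference of 0.09. Nes, nestin of immature and reactive glia, went the other way from 26.3, 34.6 and 22.6 CPM to 13.3, 17.1, 21.4 and 15.8, with no overlap and a log2 difference of −0.72 (SE 0.198). Timp1, an inhibitor of metalloproteinases made by reactive astrocytes, had a log2 difference of −0.60. Among 13 homeostatic astrocyte genes 10 were higher (median 0.09, range 0.03 to 0.14). Gjb6, a gap junction protein, had 56.5, 37.7 and 37 CPM against 68.7, 67.5, 56.2 and 62.2, a log2 difference of 0.54.

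Neuronal genes were higher by small amounts that depended on which libraries were kept. Of 20 neuron markers 19 were higher at 4 wpt, with a median of 0.19 and 0 at an unadjusted p under 0.05. Their summed level was 5280 to 10100 CPM at 1 wpt and 8160 to 9910 at 4 wpt, between the 686 to 3040 of sub-SCI and the 13600 to 16400 of Intact. Without +MSC-4w replicate 1 the median was −0.005, with 10 higher and 10 lower, and without +MSC-1w replicate 1 it was 0.41. With all replicate 1 libraries of the series left out, the median was 0.18, with 15 higher and 5 lower. Chat, the acetylcholine-making enzyme of motor neurons, read 41.3, 18.3 and 28.5 CPM and then 37.7, 42.7, 44.8 and 37.4 (log2 difference 0.47). Map2, a dendritic protein, read 630, 625 and 569 CPM and then 896, 649, 638 and 757 (0.27 on the same scale).

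The receptor and channel lists had medians of similar size that also depended on which libraries were kept. Of 16 GABA receptor and chloride cotransporter genes 13 were higher (median 0.20), of 6 glycine receptor genes 4 (median 0.11), of 15 glutamate receptor genes 14 (median 0.23), of 17 synaptic vesicle genes 15 (median 0.19) and of 22 sodium and calcium channel genes 20 (median 0.24), with 0 genes of any of these lists at an unadjusted p under 0.05. Without +MSC-4w replicate 1 the medians were 0.07 for the GABA list, −0.015 for glycine receptors, 0.07 for glutamate receptors, 0.03 for synaptic vesicles and 0.10 for the channels. In the same order they were 0.09, −0.028, 0.15, 0.14 and 0.18 without +MSC-1w replicate 3. Gabra2, an alpha subunit of the GABA A receptor, had 36.5, 41.6 and 40.4 CPM at 1 wpt and 42.8, 47.8, 64 and 48.5 at 4 wpt. These groups did not overlap, yet the 95% interval of the log2 difference of 0.36 ran from −0.28 to 1.01. Slc12a5, the chloride exporter that makes GABA inhibitory, read 203, 164 and 122 CPM and then 293, 161, 140 and 197 (log2 difference 0.28). Cacna1d, an L-type calcium channel, had 25.1, 26.5 and 23.2 CPM against 39.8, 28.5, 27.8 and 32.9 (0.37), and Scn8a, the sodium channel of nodes and axon initial segments, 87.9, 97 and 84.2 against 186, 112, 107 and 122 (0.56). Of glutamate receptor genes, Gria1 had a log2 difference of 0.40 and Grin2b one of 0.46. Glra1, the main glycine receptor subunit of the adult cord, had one of 0.29, and Sv2c, a vesicle protein, one of 0.59.

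Myelin genes differed little, with 13 of 18 lower and a median of −0.11 that was 0.017 without +MSC-4w replicate 2. Mbp, the myelin basic protein, read 16100, 14000 and 16100 CPM and then 16700, 9720, 14600 and 15800, and the 95% interval of its log2 difference of −0.12 ran from −0.69 to 0.46. The summed level of the list was 27800 to 31300 CPM at 1 wpt and 20100 to 30700 at 4 wpt, against 54100 to 61100 in Intact. Oligodendrocyte precursor genes had a median of 0.005 over 10 (range −0.05 to 0.09). Sox10, the lineage factor, had 241, 203 and 193 CPM and then 144, 151, 195 and 167 (log2 difference −0.37). Schwann cell genes, a sign of myelinating cells that enter from the roots, had a median of 0.01 over 12 (range −0.23 to 0.22), beside 0.83 in the vehicle cords where edgeR called 0. Erbb3, their neuregulin receptor, had a log2 difference of −0.27.

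The cholesterol lists had medians close to 0. The 23 cholesterol synthesis genes had a median of −0.02 (range −0.08 to 0.06), and Insig1, the sterol sensor that is itself a target of the SREBP factors, had 75, 61.3 and 64.4 CPM and then 102, 72.1, 65.1 and 114 (log2 difference 0.40). Insig1 rose by 0.82 in the vehicle cords (edgeR adjusted p = 0.0351). The 12 cholesterol efflux and lipid storage genes had a median of −0.06 (range −0.15 to −0.008). Plin2, which coats lipid droplets, read 171, 166 and 168 CPM and then 131, 109, 142 and 125, with no overlap and a log2 difference of −0.41. Outside these lists, DESeq2 on the 7 libraries called Thrsp, a regulator of fatty acid synthesis, higher by 1.29 (adjusted p = 0.0222) and Plin4, a lipid droplet protein, higher by 0.76 (adjusted p = 0.049). Iron and heme genes had a median of −0.03 over 14 (range −0.05 to 0.06), with Slc40a1, the iron exporter, at −0.62.

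The remaining lists had medians near 0, and most turned sign when 1 library was left out. Endothelial genes had a median of −0.04 over 14 (range −0.04 to 0.06), with Mfsd2a, the lipid transporter of the blood-brain barrier, at 27.9, 19.8 and 23.5 CPM and then 76.9, 33.7, 22.9 and 35.4 (log2 difference 0.83), highest in +MSC-4w replicate 1. Of 13 motile cilia genes 12 were higher (median 0.15, range 0.09 to 0.22, beside 0.71 in the vehicle cords). Of 13 axon regeneration-associated genes 12 were lower (median −0.16, range −0.29 to −0.11), with Gadd45a, a stress-response gene, at −0.40 and Atf3, the injury transcription factor, at −0.65. The 15 neurotrophic genes had a median of 0.08 (range −0.04 to 0.22), and Hgf, hepatocyte growth factor, a log2 difference of 0.41. The 15 immediate early genes had a median of 0.02 (range −0.10 to 0.07), with Ier2 at −0.38 and Arc at −0.77. Mitochondrially encoded genes had a median of 0.07 over 11 (range −0.07 to 0.24), Hox genes of the thoracic and lumbar cord −0.10 over 12 (range −0.18 to 0.10), bone and cartilage genes −0.11 over 10 (range −0.32 to 0.04) and hemoglobin genes 0.07 over 5 (range −0.68 to 0.42).

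Markers of tissue that a 5 mm segment can carry along were low or uneven. Sensory ganglion genes (10 tested) had a median of 0.36 (0.09 without +MSC-4w replicate 2), and Scn10a, a sodium channel of ganglion neurons, was at 6.08 CPM in +MSC-4w replicate 2 and at 0.0398 to 0.143 in the other 3. Their summed level was 197 to 500 CPM at 1 wpt and 277 to 506 at 4 wpt. Skeletal muscle genes (8 tested) had a median of 0.72 (range 0.36 to 1.02) and summed to 17.3 to 23.9 CPM at 1 wpt and 17.4 to 67.4 at 4 wpt. Hemoglobin genes summed to 246 to 1020 CPM and 151 to 977. Hox genes, which mark the level of the cord, summed to 143 to 216 CPM and 145 to 179. Their part in the results above was not tested.

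**Figure D4:**
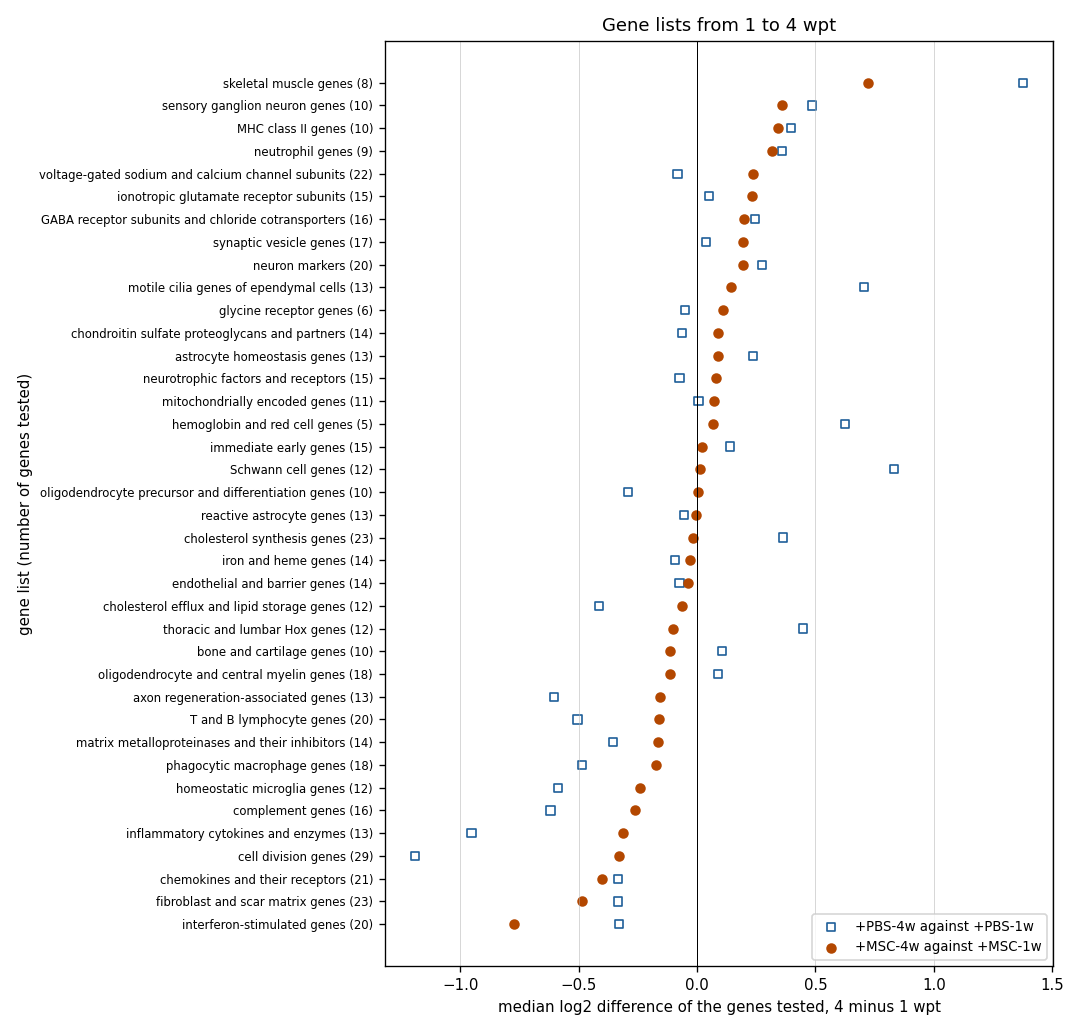
Median log2 difference between 4 and 1 wpt of the genes tested in each of 38 lists (rows, with the number of genes tested), in the stem cell cords (filled circles) and the vehicle cords (open squares). The interferon-stimulated genes are lowest in the stem cell cords (−0.77), and the cell division genes lowest in the vehicle cords (−1.19).

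Genes that the vehicle cords changed were set beside the stem cell cords, which share no library with them. The 141 genes that rose in the vehicle cords had a median log2 difference of 0.19 in the stem cell cords, and 127 were positive there. The 183 that fell had a median of −0.30, and 172 were negative. Of all genes tested, 52% were positive and 48% negative in the stem cell cords, with a median of 0.01. Over all genes the log2 differences of the 2 courses had a Pearson r of 0.262 and a Spearman rho of 0.340, a description across genes, which are not independent replicates. Genes named from these calls were chosen after their values were seen. Sdc1, a proteoglycan of plasma cells and epithelium, fell from 51, 46.2 and 37.3 CPM to 11.4, 11.4, 16.3 and 14.2 in the vehicle cords (edgeR adjusted p = 0.00197). In the stem cell cords it read 18.4, 18.8 and 17.3 CPM at 1 wpt, below every +PBS-1w library, and then 8.71, 13.7, 12.7 and 11.6 (log2 difference −0.63). Nkain4, a partner of the sodium pump, rose in the vehicle cords from 21.7, 22.2 and 25.7 CPM to 50.3, 44.5, 42.9 and 35.2 (edgeR adjusted p = 0.00571). In the stem cell cords it read 27.9, 29.3 and 24.3 CPM and then 24.8, 31, 27.8 and 27.5, with a 95% interval of its log2 difference from −0.25 to 0.32. The difference between the courses was −0.86 (edgeR adjusted p = 0.566). RT1-CE3, another MHC class I copy, had the smallest p for that difference, with −2.11 in the stem cell cords and 3.01 in the vehicle cords (edgeR adjusted p = 0.491 for the difference), and its reads may be shared with its copies.

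The genes altered by the injury itself were also set beside the course. Of the genes tested, 2981 were higher in sub-SCI than in Intact (16.6%) and 3151 lower (17.5%) at an absolute log2 fold change over 1 and an adjusted p under 0.01 by edgeR. The 2981 injury-higher genes had a median log2 difference of −0.16 between 1 and 4 wpt (quartiles −0.34 and −0.003), and 75.4% were negative. The 3151 injury-lower genes had a median of 0.16 (quartiles 0.04 and 0.29), and 80.8% were positive. Over all genes tested these shares were 48% negative and 52% positive. Of the 404 genes lower at an unadjusted p under 0.05, 236 were injury-higher.

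To place each library on one scale, those 6132 genes were projected on a line set to 0 at the mean of sub-SCI and to 1 at that of Intact. The +MSC-1w replicates stood at 0.5, 0.467 and 0.437 and the +MSC-4w replicates at 0.686, 0.456, 0.489 and 0.567. The groups overlapped, with 1 of the later libraries below the 1 wpt median and replicate 1 the farthest above it. The means were 0.468 ± 0.0317 and 0.549 ± 0.102 (SD, n = 3 and 4), and their difference of 0.0811 did not pass an exact two-sided permutation test (p = 0.286, where the 35 regroupings allow no p under 0.0286). Without +MSC-4w replicate 1 the difference was 0.0357. The +MSC-2w libraries averaged 0.619 ± 0.0541 (SD, n = 3), while +PBS-1w averaged 0.220 ± 0.0985 (SD, n = 3) and +PBS-4w 0.337 ± 0.0534 (SD, n = 4).

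**Figure D5:**
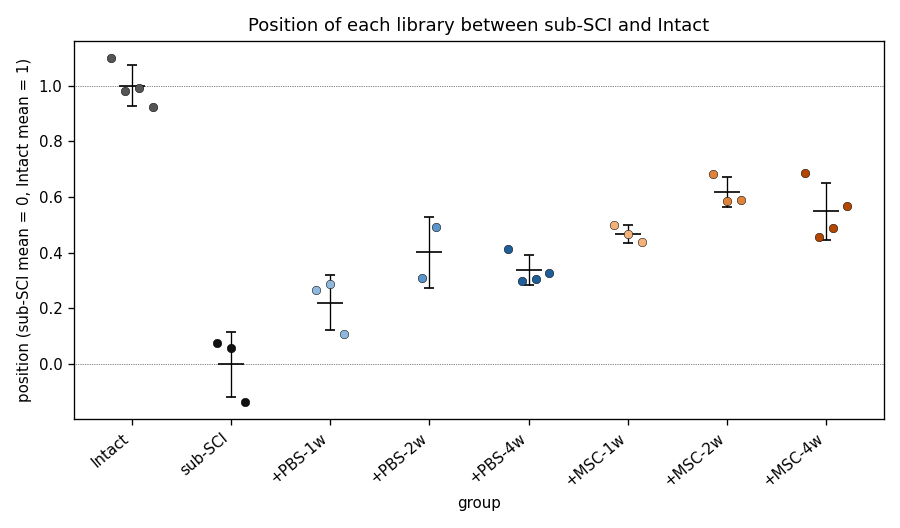
Position of each of the 26 libraries on a line that is 0 at the mean of sub-SCI and 1 at that of Intact, for 6132 genes altered by the injury (y axis, no unit), by group, with mean (bar) and SD (whiskers). The +MSC-4w libraries span 0.456 to 0.686 and the +MSC-1w libraries 0.437 to 0.5.

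By the labels' groups, the libraries at 2 wpt did not always lie between those at 1 and 4 wpt. Between +MSC-1w and +MSC-2w edgeR called 0 genes (smallest adjusted p 0.306), with 412 higher (2.29%) and 927 lower (5.15%) at an unadjusted p under 0.05. Between +MSC-2w and +MSC-4w it also called 0 (smallest adjusted p 0.183), with 977 higher (5.43%) and 500 lower (2.78%). DESeq2 called 66 and 167 over all libraries. The fibroblast and matrix list carried this shape, with a median of −1.58 from 1 to 2 wpt (19 of 23 lower at an unadjusted p under 0.05) and 1.14 from 2 to 4 wpt (12 higher at that p). Its summed level was 5220 to 8080 CPM in +MSC-1w, 2930 to 3610 in +MSC-2w and 4340 to 6340 in +MSC-4w. Eln, elastin of vessels and meninges, chosen after its values were seen, read 57.7, 243 and 77.6 CPM, then 24.9, 7.22 and 8.48, then 38.3, 45.9, 32.9 and 43.9. Bmp7, a growth factor of the meninges, chosen in the same way, read 16.8, 22.7 and 20.5 CPM, then 5.18, 1.72 and 2.21, then 12.3, 25.9, 18.8 and 20.5. In both genes the 2 wpt libraries lay below all libraries of the other 2 times. Whether the 2 wpt segments held less meninges was not tested. Replicates 2 and 3 of +MSC-2w were the most alike of all pairs of libraries within a group.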

How the data were processed

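Poly(A) RNA of rat cord segments was sequenced. Per the labels and the study's methods, the authors trimmed reads with Trim Galore (0.5.0), removed those with a human match (build GRCh38), placed what was left on the Rnor6 rat build with HISAT2 (2.1.0), used SAMtools (1.9), and deposited raw counts per gene from featureCounts (1.6.4). Whether counting used strand was not given in the sources used here, so overlapping genes cannot be told apart. Removing human reads can also remove rat reads of conserved genes. All 26 single files equalled the joint table, and libraries of a group differed by more than sampling noise. The closest pair was +MSC-2w replicates 2 and 3, whose counts had a chi-square of 5.48 per degree of freedom. In the other pairs within a group it was 12.8 to 242.

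From the counts, filterByExpr kept 17990 of 32883 genes (6513 had no count), and edgeR (4.0.16, R 4.3.3) fitted a quasi-likelihood model of 8 groups over 26 libraries with TMM scaling and Benjamini-Hochberg adjustment. A call is an adjusted p under 0.05. The fits were run on simulated data with planted changes, and the share of these that was called is not reported here. DESeq2 (1.42.0), other scalings, filters, the replicate number and leaving out each library were the alternatives. Named genes were the 5 of smallest p in each direction with a gene symbol, since none was called, and the 2 of smallest p in each of 38 lists (549 genes tested), plus members of the interferon list and others given as examples. Some genes that the rule names are not reported here. The members and lists were chosen with earlier results of these data known. Promoters and build GRCr8 are from RefSeq, and no coordinate of the Rnor6 build was used.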

Additional observations from a re-analysis of the deposited data

Results flagged for a closer look

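Of 90 groups of values tested for a single library far from its group by Dixon's criterion, 5 were flagged in +MSC-4w, and chance flags about 1 in 20. Cd8a was at 15.8 CPM in replicate 4 and between 10.8 and 10.9 in the other 3. Bub1b was at 1.03 CPM in replicate 1 against 2.61 to 2.8. Slc2a1, the glucose transporter of the blood-brain barrier, was at 422 CPM in replicate 1 against 241, 229 and 257. Scn11a and Scn10a, sodium channels of sensory ganglion neurons, were at 4.96 and 6.08 CPM in replicate 2 and under 1 CPM in the others.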

How the results depend on the processing

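edgeR called 0 genes between +MSC-1w and +MSC-4w under every filter, scaling and left-out library, and with the replicate block (283 higher and 523 lower at an unadjusted p under 0.05). DESeq2 called 1 higher gene over all libraries, which was also past the stricter threshold, and 11 higher and 6 lower on the 7 libraries, 2 past that threshold. The numbers were not treated as a pairing, since the correlations of deviations in same-numbered libraries were 0.159, 0.0613 and −0.0485. For the difference between the courses, DESeq2 called 2 genes over all libraries and 3 on the groups concerned, and leaving out a library gave 0 to 1 (without +MSC-4w replicate 3). From 1 to 2 wpt there were 94 calls without the replicate 1 libraries, 190 by edgeR on the 2 groups, 66 and 951 by DESeq2, and 0 to 5 without 1 library. From 2 to 4 wpt these were 141, 2, 167 and 535, and 0 to 13, the highest in both without +MSC-2w replicate 1. The 324 calls of the vehicle course became 212 without a filter, 506 with a term for replicate 1, 195 without the replicate 1 libraries, 0 on the 2 groups alone, 827 by DESeq2, and 11 (without +PBS-1w replicate 1) to 618 (without +PBS-4w replicate 1), so that number rests on these choices. Their causes were not tested. The position difference was 0.0357 to 0.112 when 1 library was left out and 0.0752 with the block. Ngfr (0.23), Hba-a2 (0.40) and Hoxc6 (0.025) turned positive without the replicate 1 libraries, Hba-a2 (0.12, range −1.23 to 0.12 over left-out libraries) without +MSC-1w replicate 1, and Scn10a negative (−1.25, range −1.25 to 3.07) without +MSC-4w replicate 2. Of 1400 values of 89 named genes, 1389 kept their direction and side of the threshold, and 6 passed it with DESeq2 (Per1, Srebf1, Tnfrsf12a, RT1-A1, Cxcl10). These genes were chosen by their p in the same data and the main fit called none. The count is therefore no measure of how firm their values are. Genes under about 1 CPM rest on few reads.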

Other observations

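Aurkb was at 82.9 CPM in +PBS-4w replicate 1 and at 12.6 to 13.6 in the other 3, so high values were found in 1 vehicle library as well as in +MSC-4w replicates 1 and 3. RT1-CE3 read 5.02, 7.51 and 3.35 CPM in +MSC-1w and 0.676, 0.765, 3.18 and 0.258 in +MSC-4w. For the difference between the courses of this gene DESeq2 over all libraries gave an adjusted p of 0.000951, where edgeR gave 0.491, and edgeR gave 0.0116 without +MSC-4w replicate 3. Errfi1, a feedback inhibitor of the EGF receptor that glucocorticoids induce, was chosen after its values were seen. It read 92.1, 85.3 and 71.7 CPM in +MSC-1w and 322, 160, 165 and 91.4 in +MSC-4w, a log2 difference of 1.15 (edgeR adjusted p = 1).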
